A study of Mus musculus with 28 samples.

Results

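The genes described here are those of the bone-forming lineage: 10 genes chosen by symbol from the 25251 genes of the deposited table, all 10 of which were present. They comprise the regulators *Runx2*, *Sp7* and *Dlx5*, the matrix and mineral genes *Alpl*, *Bglap*, *Ibsp*, *Spp1* and *Sparc*, and the receptor activator of NF-kB (RANK) ligand *Tnfsf11* with its decoy receptor *Tnfrsf11b*. RNA was measured in 28 libraries from C57BL/6 mice aged 8 to 10 wk, either *Flt3+/+* or homozygous for the Flt3-ITD knock-in (*Flt3ITD/ITD*), in which the receptor carries an internal tandem duplication and the mice develop myeloproliferation. Endothelial cells (ECs; CD45-Ter119-CD31+) and mesenchymal stromal cells (MSCs; CD45-Ter119-CD31-CD166-Sca1+) came from cells lining the crushed and collagenase-treated femur and tibia, whereas the mononuclear cells (MNCs) are named as BM cells, and the sources used here do not settle whether they were taken from marrow or from the bone-lining fraction. ECs and MSCs were sequenced from 5 mice of each genotype, with 100 cells per library, and MNCs from 4 of each, with 200 cells per library. The knock-in allele is carried by every cell of the mouse, and the sex of the mice is not given in the sources used here. CD166+Sca1- cells, which the study gated as osteoblasts, lie outside the MSC gate and were not among these libraries.

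Bone is made by osteoblasts, which arise from mesenchymal precursors under the transcription factors *Runx2* and *Sp7* (osterix). The cells then deposit a collagen matrix with noncollagenous proteins such as osteonectin, osteopontin, bone sialoprotein and osteocalcin, and tissue-nonspecific alkaline phosphatase provides phosphate for its mineral. Cells of the same lineage steer osteoclasts through RANK ligand, which drives osteoclast formation, and osteoprotegerin, which binds RANK ligand and blocks it.

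Total counts ranged from 6377013 to 33880743 per library, and 3 counts in a library were taken as the floor. Floors and counting intervals do not cover amplification, since the reads carry no molecular identifiers. Levels are given as RPKM, in which read counts are scaled by transcript length and by the total of the library. The sorted populations carried their defining markers. *Cdh5* and *Pecam1* had mean RPKM of 212.8 ± 30.1 and 279.6 ± 63.8 in ECs (SD, n = 10) and at most 0.19 and 1.93 in any MSC library, *Pdgfra* was at 83.0 ± 15.8 in MSCs and 0.34 ± 0.56 in ECs, and *Ptprc* was at 142.1 ± 14.8 in MNCs (n = 8). The RNA for CD166, *Alcam*, was at 0.21 RPKM or less in 9 MSC libraries and at 3.94 in *Flt3ITD/ITD* replicate 1. The 5 chondrocyte markers summed to between 362.1 and 1175 RPKM in the MSC libraries and to 3.56 or less in ECs. Other stromal lists were as high in ECs as in MSCs or higher, judged by their medians in at least 1 genotype. The sum over 6 stromal markers had medians of 5457 (*Flt3+/+*) and 4173 (*Flt3ITD/ITD*) RPKM in ECs and 3540 and 3554 in MSCs, with most of it from *Ly6a* (Sca1; 4759 ± 884 in ECs and 2756 ± 400 in MSCs). The 4 markers of leptin receptor stromal cells had medians of 391.9 and 440.8 in ECs and 284.9 and 539.9 in MSCs. The 4 markers of smooth muscle and pericytes had medians of 525.6 and 408.2 in ECs, above the 25.7 and 53.5 in MSCs. The part of such cells in the EC values was not tested. Of the sorted libraries, a pair stood apart by leukocyte RNA: the 6 leukocyte markers summed to 200.9 RPKM in *Flt3ITD/ITD* EC replicate 2 and 164.8 in *Flt3ITD/ITD* MSC replicate 5, against medians of 3.10 and 1.98 in their groups. The 6 neutrophil markers summed to 29474.5 RPKM in *Flt3ITD/ITD* EC replicate 2, against a group median of 57.07. In *Flt3ITD/ITD* MSC replicate 5 they summed to 6029.08, against a group median of 27.96. The lowest such sum in an MNC library was 40322.7. *Flt3+/+* EC replicate 1 also stood apart, by blood cell RNA. Its 2 erythroid markers were at 96.9 RPKM (at most 0.07 in the other *Flt3+/+* ECs) and its 6 neutrophil markers at 1295 (at most 95.9). For some of the genotype differences that rest on these libraries, edgeR values without them are also given.

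The promoters of osteocalcin (*Bglap*) and osteopontin (*Spp1*) are shown because both genes differed strongly between populations, and each window holds the core letters bound by Runx factors. The windows cover the 250 bases before the RefSeq start (GRCm38.p6), written 5′ to 3′ on the strand of the gene. *Bglap* lies on chr3:88384467-88384716 (minus strand) and *Spp1* on chr5:104434861-104435110 (plus strand), and capitals mark ACCACA, the reverse complement of TGTGGT.
Bglap: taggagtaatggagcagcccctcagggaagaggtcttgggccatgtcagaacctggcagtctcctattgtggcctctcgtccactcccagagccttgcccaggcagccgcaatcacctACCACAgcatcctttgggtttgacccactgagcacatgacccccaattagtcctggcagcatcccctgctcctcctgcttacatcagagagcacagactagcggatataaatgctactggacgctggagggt
Spp1: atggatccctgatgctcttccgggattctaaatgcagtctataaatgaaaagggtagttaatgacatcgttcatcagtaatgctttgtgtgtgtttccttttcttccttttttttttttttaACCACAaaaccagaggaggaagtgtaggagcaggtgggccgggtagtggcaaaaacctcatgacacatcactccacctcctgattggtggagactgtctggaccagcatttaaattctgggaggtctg
The letters TGTGGT were searched on both strands, and the match began 132 bases before the start of *Bglap* and 128 bases before that of *Spp1*. The 7 members with an entry had 9 windows, since some genes have more than 1 start, and 3 of the 9 held a match, the third being that of *Runx2* itself, as did 14.0% of all 32851 promoter windows. *Alpl*, *Ibsp*, *Sparc* and *Tnfsf11* had none in these windows, and *Sp7*, *Dlx5* and *Tnfrsf11b* had no entry. The match is a description of the letters only.

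Bone matrix genes were among the most abundant transcripts of the sorted MSCs. By mean RPKM over 10 libraries, *Spp1* ranked 17 of 25251 genes, *Sparc* 21, *Ibsp* 56 and *Bglap* 386, and the secreted decoy receptor *Tnfrsf11b* ranked 720. *Dlx5* ranked 3947, *Alpl* 4759 and *Runx2* 9735, whereas *Sp7* and *Tnfsf11* ranked 14022 and 15911.

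**Figure D1:**
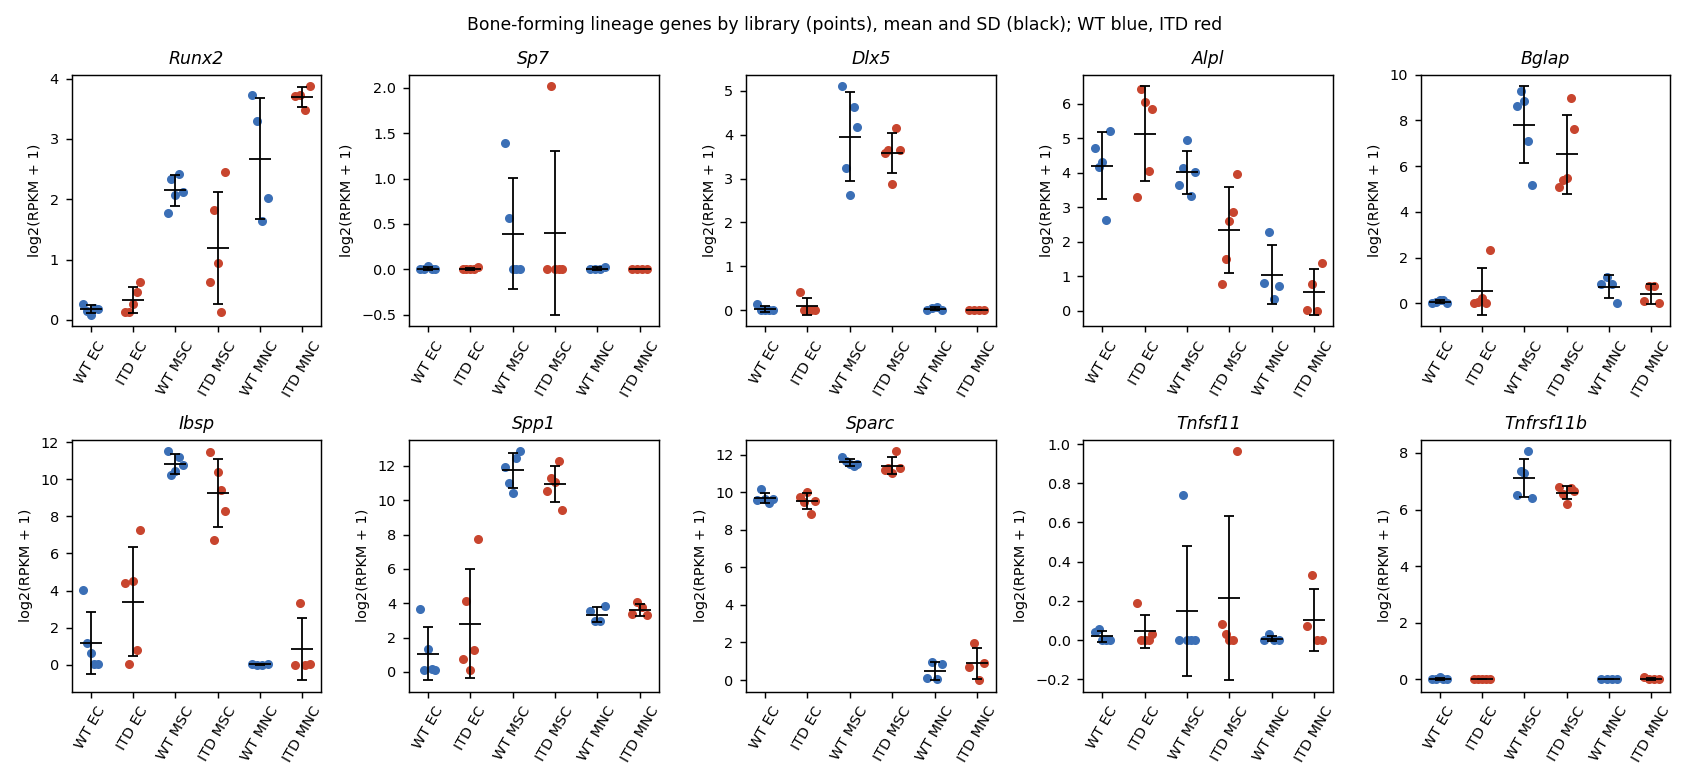
RPKM of the 10 genes on a log2 scale (pseudocount 1; each panel has its own axis) in the 28 libraries, by population and genotype; points are libraries and black bars are the mean and SD of the log2 values. *Bglap*, *Spp1*, *Sparc*, *Dlx5* and *Tnfrsf11b* lie higher in every MSC library than in any EC library, and the genotypes overlap in every panel.

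The populations were compared with edgeR's quasi-likelihood test over 16897 genes that passed the filter on low counts. To be called, a gene needed an adjusted p-value below 0.1 together with mean RPKM that differed by at least 1 on the log2 scale. The filter removed *Sp7* and *Tnfsf11*, and 8 members were tested. *Dlx5* and *Tnfrsf11b* had 3 counts or less in every EC and MNC library and passed the filter only through MSCs. *Bglap* also passed only through MSCs. It had 3 counts or less in every EC library but *Flt3ITD/ITD* replicate 5 (59 counts), and 12 or less in MNCs. For these genes a call as lower in MSCs was not possible, so their direction is not independent support. In MSCs against ECs, 7 of the 8 members were called higher (16.6% of all genes tested were) and 1, *Alpl*, lower (16.3% of all genes). In MSCs against MNCs, 7 were called higher (22.2% of all genes) and 1, *Runx2*, lower (22.0%). In ECs against MNCs, *Alpl*, *Ibsp* and *Sparc* were called higher (23.1% of all genes) and *Runx2* lower (22.0%). Every MSC library lay above every EC library for 5 members (3.61% of genes tested) and above every MNC library for 6 (9.31%), and no member lay below in every MSC library (4.75% and 12.2% of genes, respectively). *Dlx5*, *Tnfrsf11b* and *Bglap* are among both the 5 and the 6. Every EC library lay above every MNC library for *Alpl* and *Sparc* (9.12%) and below for *Runx2* (9.39%). In bulk libraries such as these, fewer cells of a kind and less RNA per cell cannot be told apart.

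Among the regulators, *Runx2*, the factor that commits precursors to the osteoblast lineage and that hematopoietic cells also express, was lower in MSCs than in MNCs. In *Flt3+/+* MSCs its RPKM was 2.42, 4.06, 3.22, 4.36 and 3.36, and in *Flt3ITD/ITD* MSCs 0.55, 2.52, 0.92, 0.09 and 4.46. The *Flt3+/+* values lay close together, whereas 3 of the 5 *Flt3ITD/ITD* libraries lay below all of them and 1 lay above. In MNCs the values were 12.25, 8.86, 2.10 and 3.08 in *Flt3+/+* mice and 12.16, 12.3, 10.15 and 13.71 in *Flt3ITD/ITD* mice, and in ECs none exceeded 0.55. The order was therefore MNCs (mean 9.33 ± 4.42, n = 8), MSCs (2.60 ± 1.60, n = 10) and ECs (0.20 ± 0.15, n = 10). The log2 fold change was -1.77 ± 0.47 (SE) for MSCs against MNCs (edgeR, adjusted p = 0.00314), 3.89 ± 0.50 for MSCs against ECs (adjusted p = 1.02e-06) and -5.66 ± 0.55 for ECs against MNCs (adjusted p = 6.13e-09). With *Flt3+/+* libraries alone, the difference between MSCs and MNCs was not called, at a log2 fold change of -0.83 ± 0.48 (edgeR, adjusted p = 0.218) and mean RPKM of 3.48 and 6.57, less than the fold the rule requires. Part of the transcript is shared with the antisense gene *Runx2os1*, since 5.65% of its 51-base windows occur in another gene's transcripts, and the counting is not stated to use strand.

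*Dlx5*, a homeobox factor of osteoblasts and cartilage, was detected in all 10 MSC libraries and hardly elsewhere. Its RPKM was 33.56, 8.50, 5.16, 23.67 and 17.19 in *Flt3+/+* MSCs and 10.96, 11.59, 6.35, 16.77 and 11.54 in *Flt3ITD/ITD* MSCs. No EC library held more than 3 counts and no MNC library more than 1. Summed over libraries, 4784 counts in MSCs stood against 5 in ECs, a ratio per total count of 734 (95% exact interval for counting error 315 to 2263). The difference passed the test (edgeR, adjusted p = 6.84e-07), in the only direction the filter allowed.

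*Sp7*, which acts downstream of *Runx2*, was patchy. In *Flt3+/+* MSCs it had 48, 38, 0, 0 and 0 counts and in *Flt3ITD/ITD* MSCs 0, 195, 0, 0 and 0, so that 3 of 10 libraries held it and 7 had no count. No EC or MNC library had more than 1 count. The filter on low counts removed it, and without the filter it was called higher in MSCs than in ECs (edgeR, adjusted p = 0.00689) and MNCs (adjusted p = 0.00576). These calls rest on the 3 libraries with counts.

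Of the matrix and mineral genes, *Bglap* (osteocalcin, a late product of osteoblasts) had a coefficient of variation of 92.2% over the MSC libraries, the largest among the 8 members tested there. Its RPKM was 399.6, 625.5, 462.7, 136.1 and 35.03 in *Flt3+/+* MSCs and 32.7, 40.8, 43.8, 506.7 and 195.7 in *Flt3ITD/ITD* MSCs. High and low libraries occurred in both genotypes. In ECs it was at 0.17 RPKM or less in 9 libraries and at 4.12 (59 counts) in *Flt3ITD/ITD* replicate 5, and in MNCs it reached 1.25. The log2 fold change was 10.1 ± 1.10 for MSCs against ECs (edgeR, adjusted p = 8.9e-08) and 8.97 ± 1.15 against MNCs (adjusted p = 5.1e-07). Both differences passed in the only direction the filter allowed. *Bglap* lies in a cluster with *Bglap2* and *Bglap3* on chromosome 3. Of the 51-base windows of its transcripts, 56.3% occur in at least 1 of these neighbors, where reads of that length cannot be placed. Ambiguous reads were dropped by the authors, so the level of each copy is uncertain. The copies were high and low in the same MSC libraries, with Pearson's r of 0.99 for *Bglap* with *Bglap2* and with *Bglap3* over the 10 libraries (a description, since the copies share sequence).

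*Ibsp* (bone sialoprotein, a nucleator of mineral) was at 2903, 1179, 1402, 2340 and 1740 RPKM in *Flt3+/+* MSCs and at 2790, 106.3, 1351, 676.2 and 312.5 in *Flt3ITD/ITD* MSCs. The lowest 3 libraries were *Flt3ITD/ITD*, and the other 2 of that genotype lay within the range of the *Flt3+/+* libraries. The log2 fold change was 7.20 ± 1.41 for MSCs against ECs (edgeR, adjusted p = 0.000275) and 12.7 ± 1.99 against MNCs (adjusted p = 9.62e-06), where 7 of 8 libraries lay at 0.05 RPKM or less and *Flt3ITD/ITD* replicate 2 at 9.14. In *Flt3ITD/ITD* libraries alone, the difference between MSCs and ECs missed the threshold (adjusted p = 0.108).

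*Spp1* (osteopontin, a matrix protein that macrophages and other cells also secrete) was at 3943, 2019, 1384, 5573 and 7383 RPKM in *Flt3+/+* MSCs and at 1483, 2536, 2105, 4981 and 687.6 in *Flt3ITD/ITD* MSCs. It was also present in every MNC library, at 6.81 to 15.6 RPKM, with little spread. The log2 fold change of MSCs was 8.38 ± 1.24 against ECs (edgeR, adjusted p = 8.25e-06) and 8.33 ± 1.37 against MNCs (adjusted p = 1.81e-05). Of its 51-base windows, 11.5% occur in transcripts of a second annotated gene, *Gm42793*.

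*Sparc* (osteonectin) was the steadiest member, with a coefficient of variation of 25.5% over the MSC libraries and mean RPKM of 2979 ± 759 in MSCs, 801.4 ± 185.1 in ECs and 0.78 ± 0.94 in MNCs. Among the members called higher in MSCs, it had the smallest fold change against ECs, and the order MSCs, ECs, MNCs held without overlap. The log2 fold change was 2.14 ± 0.49 for MSCs against ECs (edgeR, adjusted p = 0.00141) and 10.003 ± 0.77 for ECs against MNCs (adjusted p = 1.16e-10).

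*Alpl*, which encodes tissue-nonspecific alkaline phosphatase, ran in the other direction. In ECs its RPKM was 25.05, 16.73, 18.79, 5.15 and 35.73 in *Flt3+/+* mice and 8.72, 84.19, 65.6, 15.44 and 56.5 in *Flt3ITD/ITD* mice. In MSCs it was 11.5, 16.52, 29.95, 8.90 and 15.18 in *Flt3+/+* mice and 0.70, 1.85, 5.08, 6.31 and 14.49 in *Flt3ITD/ITD* mice. The populations overlapped, with means of 33.2 ± 26.8 and 11.05 ± 8.63 (n = 10 each), and MNCs were at 3.88 or less. MSCs were lower than ECs by a log2 fold change of -1.47 ± 0.66 (edgeR, adjusted p = 0.0918). This call lay near the threshold and was lost with another normalization, without the filter, within either genotype alone and on leaving out any of 15 of the 28 libraries in turn. MSCs were higher than MNCs by 3.597 ± 0.79 (adjusted p = 0.000533).

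The RANK ligand axis was uneven, with the decoy receptor abundant and the ligand hardly detected. *Tnfrsf11b* (osteoprotegerin) was at 90.6, 161.5, 154.4, 265.4 and 84.0 RPKM in *Flt3+/+* MSCs and at 109.0, 91.9, 73.1, 108.2 and 100.7 in *Flt3ITD/ITD* MSCs. It was at 3 counts or less in every EC and MNC library, and its 95658 counts in MSCs stood against 3 in all EC libraries together and 3 in all MNC libraries together. The ratio per total count was 24472 against ECs (95% exact interval for counting error 8374 to 118672). The difference passed the test (edgeR, adjusted p = 4.76e-11), in the only direction the filter allowed. *Tnfsf11* had 0, 51, 0, 0 and 0 counts in *Flt3+/+* MSCs and 4, 1, 0, 0 and 23 in *Flt3ITD/ITD* MSCs. Thus 3 of 10 MSC libraries held more than 3 counts, and the mean of 0.17 RPKM compares with 123.9 for *Tnfrsf11b* on the same scale. Without the filter, *Tnfsf11* missed the threshold for MSCs against ECs (edgeR, adjusted p = 0.102) and against MNCs (adjusted p = 0.153).

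Whether the genotype altered these genes was then examined within each population. None of the members was called in MSCs (0 of 8 tested; edgeR called 0.0295% of all genes), in ECs (0 of 5; 0.00810%) or in MNCs (0 of 4; 0.0144%). In edgeR with the filter, none had an unadjusted p below 0.05 in any population. DESeq2 also called 0, of 9 members with an adjusted p in MSCs (1.29% of all genes were called), 4 in ECs (2.58%) and 5 in MNCs (2.14%). All libraries were also kept in DESeq2, edgeR without the filter and edgeR with a replicate block. In MSCs the unadjusted p then fell below 0.05 for *Alpl* (in each of these fits) and *Ibsp* (edgeR with the block). In ECs it did for *Ibsp* (DESeq2) and *Bglap* (edgeR without the filter). In MNCs it did for *Ibsp* (edgeR without the filter) and *Runx2* (edgeR with the block). All of these had an adjusted p of 0.463 or more in the same fit. Results with limma are given in the section on processing. For no member did the genotypes fail to overlap in MSCs (0.914% of genes tested), ECs (1.14%) or MNCs (6.71%). In MSCs the log2 fold change was below 0 for all 8 members tested, with a median of -0.75 against 0.03 over all genes, but none of the 8 differences passed. The marker lists of other stromal cells differed in level between the same libraries. The 5 chondrocyte markers summed to a median of 926.6 RPKM (600.4 to 1175) in *Flt3+/+* MSCs and 639.6 (362.1 to 861.2) in *Flt3ITD/ITD* MSCs, and the 4 markers of leptin receptor stromal cells to 284.9 (137.2 to 486.1) and 539.9 (229.2 to 1235), with overlap in both. Their part in the values of the members was not tested.

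**Figure D2:**
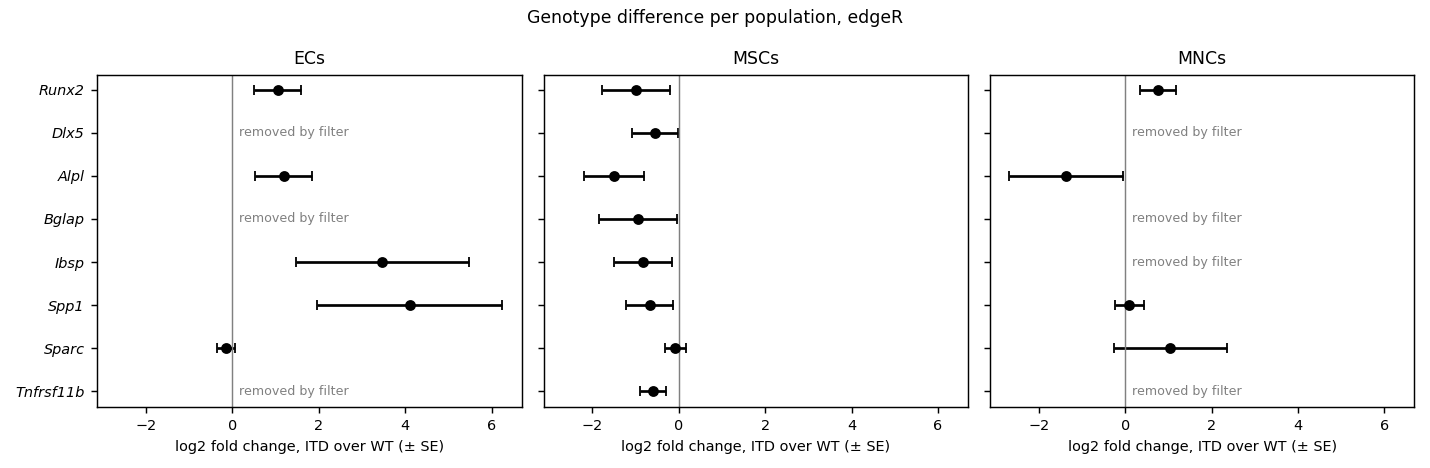
Log2 fold change of *Flt3ITD/ITD* (ITD) over *Flt3+/+* (WT) with its SE from edgeR for the 8 members tested in at least 1 population; genes removed by the filter on low counts are marked. In MSCs all 8 points lie below 0, from -1.51 for *Alpl* to -0.08 for *Sparc*, and no difference passed the test.

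In MSCs, *Alpl* had the most negative value, -1.51 ± 0.69 (edgeR, unadjusted p = 0.0511, adjusted p = 0.999), with mean RPKM of 16.4 ± 8.15 in *Flt3+/+* and 5.69 ± 5.43 in *Flt3ITD/ITD* mice. In 4 of 5 *Flt3ITD/ITD* libraries it lay below all *Flt3+/+* libraries, and the fifth, replicate 5, was the library with leukocyte RNA. A two-sided exact permutation test on mean RPKM gave p = 0.0317 for *Alpl* in MSCs, the only p below 0.05 among 30 such tests over 10 members and 3 populations, of which the smallest possible is 0.00794 with 5 mice against 5 and 0.0286 with 4 against 4. Without the leukocyte-rich libraries the log2 fold change of *Alpl* was -2.15 ± 0.68 (edgeR, adjusted p = 0.869) and that of *Runx2* moved from -0.99 ± 0.78 to -1.71 ± 0.78 (adjusted p = 0.999). The part of the leukocyte RNA in these values was not tested. *Tnfrsf11b* was at -0.59 ± 0.30, *Bglap* at -0.94 ± 0.90, *Ibsp* at -0.83 ± 0.67, *Spp1* at -0.67 ± 0.55, *Dlx5* at -0.55 ± 0.53 and *Sparc* at -0.08 ± 0.23 (edgeR, adjusted p = 0.999 for each).

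In ECs, *Alpl* (1.18 ± 0.67), *Runx2* (1.05 ± 0.55), *Ibsp* (3.47 ± 1.997) and *Spp1* (4.11 ± 2.15) had positive log2 fold changes, none of which passed (edgeR, adjusted p = 0.9998 for each). The highest *Alpl* value was in the leukocyte-rich *Flt3ITD/ITD* replicate 2. Without that library, *Alpl* was at 0.83 ± 0.69 (edgeR, unadjusted p = 0.255). *Runx2* was then at 1.25 ± 0.55 (edgeR, unadjusted p = 0.0477), and the adjusted p was 0.999 for both. The values of *Ibsp* and *Spp1* rested largely on 1 library of each genotype. *Ibsp* was at 15.4, 1.27, 0.56, 0.04 and 0.02 RPKM in *Flt3+/+* ECs and at 20.6, 0.03, 22.0, 0.77 and 150.4 in *Flt3ITD/ITD* ECs. *Spp1* was at 11.7, 0.06, 1.5, 0.11 and 0.08 and at 0.65, 16.4, 0.07, 1.40 and 216.9, respectively. *Flt3ITD/ITD* replicate 5 was highest for both, and without it the log2 fold changes were 1.66 ± 1.92 for *Ibsp* and 0.84 ± 1.78 for *Spp1*. *Flt3+/+* replicate 1 was the highest of its genotype for both, and without it the values were 6.30 ± 2.25 (edgeR, unadjusted p = 0.0198, adjusted p = 0.844) and 6.70 ± 2.49 (unadjusted p = 0.0238, adjusted p = 0.861). *Flt3+/+* replicate 1 also carried erythroid and neutrophil RNA, whose part in its *Ibsp* and *Spp1* was not tested.

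*Flt3ITD/ITD* EC replicate 5 held a particular set of bone products. Relative to the mean of the 10 MSC libraries, it carried 10.2% of the *Ibsp* level, 6.76% of *Spp1*, 1.66% of *Bglap*, 1.37% of *Col1a2* and 0.385% of *Col1a1*. *Ifitm5*, which encodes an osteoblast membrane protein also called BRIL, was at 14.96 RPKM there, above its level in any MSC library (at most 11.75). In contrast, *Dlx5*, *Tnfrsf11b* and the fibroblast matrix gene *Dpt* had 0 counts, and *Pdgfra* was at 0.458% of the MSC mean. Other genes of MSCs were higher there. *Lepr*, *Cxcl12* and *Runx2* stood at 189%, 76.7% and 21.2% of the MSC mean, the highest of the EC libraries. In the remaining EC libraries they reached up to 119%, 56.7% and 14.6%, respectively. The shares thus differed between genes that are all expressed in MSCs. *Ibsp* without much *Spp1* or *Bglap* was seen in *Flt3ITD/ITD* EC replicates 1 and 3, at 1.39% and 1.49% of the MSC mean. *Flt3+/+* EC replicate 1 held 1.04% of the *Ibsp* level with 0.365% of *Spp1* and 0 counts of *Bglap*. The origin of these transcripts was not tested.

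**Figure D3:**
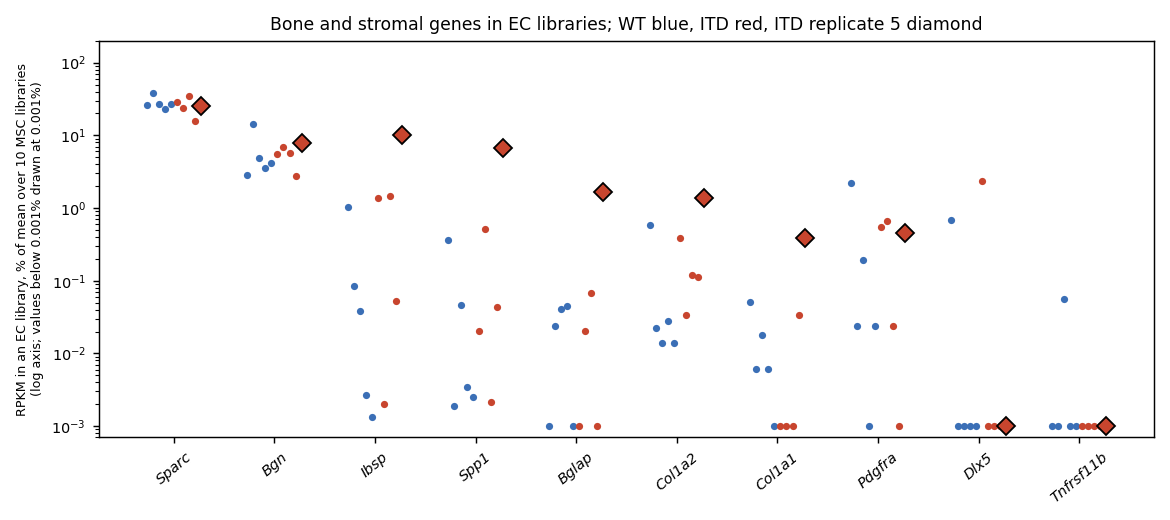
RPKM of bone and stromal genes in each of the 10 EC libraries as a percentage of the mean over the 10 MSC libraries (log axis; values below 0.001% are drawn at 0.001%); WT is *Flt3+/+* and ITD is *Flt3ITD/ITD*. *Flt3ITD/ITD* replicate 5 (diamond) is highest for *Ibsp*, *Spp1*, *Bglap*, *Col1a2* and *Col1a1* but not for *Pdgfra*, *Dlx5* or *Tnfrsf11b*.

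In MNCs, *Runx2* was at 6.57 ± 4.82 RPKM in *Flt3+/+* and 12.1 ± 1.47 in *Flt3ITD/ITD* mice (n = 4 each), a log2 fold change of 0.76 ± 0.42 (edgeR, adjusted p = 0.541; two-sided exact permutation p = 0.0857). The *Flt3+/+* libraries split, with replicates 1 and 2 within the range of *Flt3ITD/ITD* mice or just below it, and replicates 3 and 4 far below. The same libraries differed in the 4 immediate-early genes, whose RPKM summed to 355.2, 276.4, 12.3 and 11.7 in *Flt3+/+* replicates 1 to 4. In *Flt3ITD/ITD* mice these sums were 363.7, 165.8, 24.1 and 9.64, while *Runx2* stayed between 10.15 and 13.71. The part of this split in the *Runx2* values was not tested.

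Whether the genotype effect itself differed between populations was tested as an interaction over 16897 genes. No member passed at an adjusted p-value below 0.1 for MSCs against ECs (0 of 8; 0.379% of all genes did) or against MNCs (0 of 8; 0.00592%). DESeq2 called 0 of 9 in each (5.55% and 2.15% of all genes, respectively). In edgeR, 3 members had an unadjusted p below 0.05 for MSCs against ECs (10.6% of all genes did), *Bglap* (-4.64 ± 1.79, adjusted p = 0.297), *Spp1* (-4.75 ± 1.89, adjusted p = 0.317) and *Runx2* (-2.06 ± 0.90, adjusted p = 0.396), and 1 did for MSCs against MNCs, *Ibsp* (5.94% of all genes). Without *Flt3ITD/ITD* EC replicate 5 the values were -1.41 ± 1.83 for *Bglap*, -1.54 ± 1.58 for *Spp1* and -1.64 ± 0.91 for *Runx2*.

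The 8 members tested in MSCs varied among the MSC libraries, from 2.20-fold between the highest and the lowest library for *Sparc* to 49.6-fold for *Runx2*, whereas *Sp7* and *Tnfsf11* had libraries at 0. Over the 28 pairs of the 8 members with a mean of at least 1 RPKM in MSCs, 23 had a positive Pearson's r of log2 RPKM over the 10 libraries, with a median of 0.17. Within genotypes, 11 of the 28 were positive, with a median of -0.06. No pair passed after adjustment (permutation test, lowest adjusted p = 0.449 for r and 0.499 for Spearman's rho). *Bglap* with *Sparc* had r = 0.72 (permutation p = 0.0164, rho = 0.65, permutation p = 0.0487), 0.77 without the 2 libraries farthest from the median of *Bglap* and 0.69 within genotypes. *Dlx5* with *Spp1* had r = 0.63 (permutation p = 0.0499, rho = 0.75, permutation p = 0.0178), 0.63 without the 2 farthest libraries and 0.60 within genotypes. *Alpl* with *Bglap* had r = 0.64 (permutation p = 0.0466, rho = 0.58, permutation p = 0.0887), which was 0.55 within genotypes but fell to 0.34 without the 2 farthest libraries and so rested on them. *Ibsp* and *Bglap*, both products of mature osteoblasts, had r = 0.09.

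**Figure D4:**
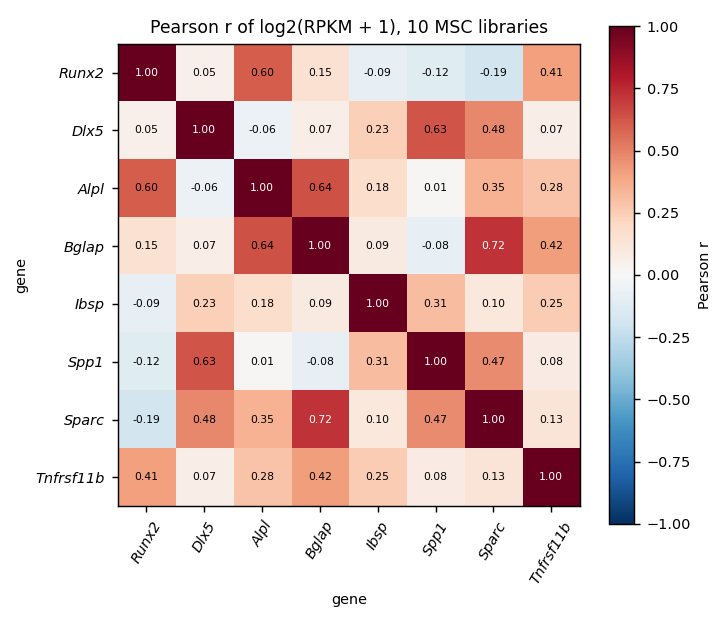
Pearson's r of log2(RPKM + 1) between members over the 10 MSC libraries (color scale from -1 to 1). The highest values are 0.72 for *Bglap* with *Sparc*, 0.64 for *Alpl* with *Bglap* and 0.63 for *Dlx5* with *Spp1*, and none passed after adjustment over 28 pairs.

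Over all 28 libraries, the genes whose pattern was most like that of a member were found by Pearson's r of log2(RPKM + 1) among 13727 genes. The values are descriptions over libraries that share their population. The genes were *Bglap2* (r = 0.997) and *Bglap3* (0.969) for *Bglap*, *Lhfp* (0.957) and *Col6a1* (0.949) for *Ibsp*, and *Angptl1* and *Lrp1* (0.956 each) for *Spp1*. *Tgfbr3* and *Fbln2* (0.985 each) were closest to *Sparc*, *Ngef* (0.983) and *Srpx2* (0.982) to *Dlx5*, and *Cilp* (0.995) and *Mfap5* (0.994) to *Tnfrsf11b*. *Alpl* was most like *Uaca* (0.883) and *Ptprm* (0.861), both of which were higher in ECs than in MSCs, and *Runx2* most like *Ptprj* (0.925) and *Cep85* (0.918), both highest in MNCs.

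A wider set of 51 genes of bone, in 5 lists that exclude the members, placed the members in context. Of the 43 tested, 29 were called higher (16.6% of all genes tested were) and 3 lower (16.3%) in MSCs than in ECs, with a median log2 fold change of 3.42 against 0.01 over all genes, and 30 were higher (22.2%) and 4 lower (22.0%) than in MNCs (median 4.34 against -0.02). Some of the 43 passed the filter through a single population, such as *Bglap2* through MSCs and *Fgf23* through ECs. The direction of such calls is not independent support, and how many there were was not counted. In the list of mineralization and matrix, 12 of 14 were higher in MSCs than in ECs, among them *Ogn* (584.4 RPKM in MSCs and 0.17 in ECs) and *Ank* (32.4 and 6.32), whereas *Phospho1*, a phosphatase of mineralizing cells, was lower (0.17 and 1.42). Of 9 regulators tested, 3 were higher, among them *Twist1* (16.1 and 0.07). Of 4 osteocyte genes tested, 3 were higher, from *Pdpn* (246.7 and 6.39) to *Cd44* (103.0 and 17.4), and *Fgf23* was lower, with 0 counts in all 10 MSC libraries and 5684 in ECs. Those were spread over 0, 9, 7, 0 and 0 counts in *Flt3+/+* ECs and 0, 3043, 0, 63 and 2562 in *Flt3ITD/ITD* ECs, so that nearly all came from *Flt3ITD/ITD* replicates 2 and 5, the former being the library with leukocyte RNA. Of 8 genes of hormone and growth factor response, 6 were higher, from *Pth1r* (5.97 and 0.18) to *Fgfr1* (48.5 and 9.05).

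The osteoclast list had calls in both directions. Of 8 tested, 5 were higher in MSCs than in ECs (16.6% of all genes were), from *Acp5* (6.04 and 0.01 RPKM) to *Itgb3* (4.82 and 0.78). *Tnfrsf11a*, the receptor for RANK ligand, was lower, at 0.26 and 4.44 RPKM (16.3% of all genes were lower). Against MNCs, 3 were higher (22.2% of all genes were), with *Ctsk*, the collagen-degrading protease cathepsin K, at 387.1 and 0.13. Another 3 were lower (22.0% of all genes), with *Csf1r*, which defines the monocyte and osteoclast lineage, at 0.04 and 44.8. With 8 genes tested, the split against MNCs is not read as a property of the list. *Ctsk* was thus abundant in MSC libraries in which *Csf1r* was at 0.31 RPKM or less.

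None of the wider genes was called between genotypes in any population by edgeR. The counts were 0 of 38 tested in MSCs (0.0295% of all genes were called), 0 of 26 in ECs (0.00810%) and 0 of 27 in MNCs (0.0144%). In the same order, 4, 0 and 2 had an unadjusted p below 0.05 in edgeR, against 4.24%, 4.99% and 10.4% of all genes. DESeq2, run without the filter on low counts, called 4. In ECs this was *Fgf23* (adjusted p = 0.0677), where 2.58% of all genes were called. In MSCs these were *Ifitm5* (adjusted p = 0.0192) and *Omd* (adjusted p = 0.0734), with 1.29% of all genes. In MNCs it was *Acp5* (adjusted p = 0.0791), with 2.14%. DESeq2 was not rerun without the leukocyte-rich libraries. Of 43 genes tested in the wider lists, 1, *Ifitm5*, had a genotype effect that differed between MSCs and ECs (edgeR, adjusted p = 0.0798). Over all genes, 0.379% passed this test. It had 103, 0, 3, 117 and 73 counts in *Flt3+/+* MSCs and 0 counts in all 5 *Flt3ITD/ITD* MSC libraries, whereas in ECs only *Flt3ITD/ITD* replicate 5 had more than 4 counts, with 279. The groups overlapped in MSCs, since a *Flt3+/+* library also had 0 counts (two-sided exact permutation p = 0.0476). The filter had removed it from the comparison within MSCs, in which DESeq2 called it and edgeR without the filter did not (adjusted p = 0.598). The interaction was lost without EC replicate 5 of *Flt3ITD/ITD* mice (adjusted p = 0.126) and on leaving out any of 17 of the 28 libraries.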

How the data were processed

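RNA sequencing was analyzed from 28 libraries in 6 groups, assigned from their labels. The authors made cDNA with 15 cycles of amplification, sequenced single-end 51-base reads, aligned them to mm10 transcripts with Bowtie, discarded reads that mapped to more than 1 place and quantified genes with RSEM. The authors deposited estimated counts, as whole numbers, and RPKM for each gene and library. Counts were used for tests and RPKM for the fold rule and single values.

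Tests used edgeR 4.0.16 (quasi-likelihood, TMM normalization, the package's filter on low counts) in R 4.3.3, with Benjamini-Hochberg adjustment over all genes tested and no covariates. Genotypes were compared within a population, and populations and interactions in 1 fit over all 6 groups. SE is the size of the log2 fold change divided by the root of F. The study called genes that passed in either edgeR or DESeq2. Here edgeR was the main test and DESeq2 1.42.0 and limma 3.58.1 were alternatives, beside RLE normalization, no filter, a replicate block, another fold rule, a single genotype and leaving out libraries. For single values, two-sided permutation tests over mice were exact, and correlations used 100000 permutations. The tests were tested on simulated data.

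The members, lists and rules were chosen with earlier results of these data known. Named genes are the members, the markers, the called list genes with the largest and smallest change per list and direction, list genes called between genotypes, and the 2 genes most like each member. *Col1a1*, *Col1a2*, *Dpt*, *Bglap2*, *Bglap3* and the *Ifitm5* values in ECs were added after values were seen. Gene windows and positions are from GENCODE on GRCm38, the build of the authors' transcripts. The result for 1 listed gene is not reported here.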

Additional observations from a re-analysis of the deposited data

Results flagged for a closer look

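Within the 56 sets of libraries of 1 member, population and genotype that were not all equal, 12 held a library whose gap to the nearest other exceeded Dixon's critical value. The 5% level of that rule assumes normally distributed values, whereas several of these sets were skewed, with the other libraries at or near 0. The count is therefore not set against chance. *Flt3ITD/ITD* EC replicate 5 was apart for *Ibsp* (150.44 RPKM, others at most 21.98), *Spp1* (216.9, others at most 16.4) and *Bglap* (4.12, others at most 0.17). *Flt3+/+* EC replicate 1 was apart for *Ibsp* (15.38, others at most 1.27) and *Spp1* (11.73, others at most 1.5), and *Flt3+/+* EC replicate 2 for *Sparc* (1143.1, others at most 808.7). In MSCs, *Flt3ITD/ITD* replicate 4 was apart for *Sparc* (4642.43, others at most 2538), *Flt3ITD/ITD* replicate 2 for *Sp7* (3.05, others at 0), *Flt3ITD/ITD* replicate 5 for *Tnfsf11* (0.95, others at most 0.06) and *Flt3+/+* replicate 2 for *Tnfsf11* (0.67, others at 0). In MNCs, *Flt3ITD/ITD* replicate 2 was apart for *Ibsp* (9.14 RPKM and 365 counts, others at most 0.03) and *Flt3+/+* replicate 2 for *Alpl* (3.88, others at most 0.75). All 12 were high values.

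The genotype effect on *Ifitm5* differed between MSCs and ECs in edgeR's interaction test (adjusted p = 0.0798), with 0 counts in all 5 *Flt3ITD/ITD* MSC libraries and 279 counts in *Flt3ITD/ITD* EC replicate 5.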

How the results depend on the processing

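No member was called between genotypes, or for a genotype effect that differed between populations, under any alternative run, and the 7 members called higher in MSCs ranged from 6 to 9 against ECs and from 7 to 8 against MNCs over the alternatives. The filter keeps genes by the size of the smallest group, so leaving out any MNC library let *Sp7* through, which was then called, and leaving out any but *Flt3ITD/ITD* MNC replicate 2 also let *Tnfsf11* through, which was then called against ECs (adjusted p from 0.0749 to 0.0926). The call of *Alpl* as lower in MSCs than in ECs fell to 0 with RLE normalization, without the filter, in *Flt3+/+* libraries only and in *Flt3ITD/ITD* libraries only. It ranged from 0 to 1 on leaving out a library, being lost without *Flt3+/+* EC replicate 1, 3 or 5, *Flt3ITD/ITD* EC replicate 2, 3 or 5, *Flt3+/+* MSC replicate 1, 2, 4 or 5, *Flt3ITD/ITD* MSC replicate 1, 2, 3 or 4, or *Flt3ITD/ITD* MNC replicate 2. In *Flt3+/+* libraries only, the members lower in MSCs than in MNCs fell from 1 to 0, those lower in ECs than in MNCs rose from 1 to 2, and the wider genes higher in ECs than in MNCs fell from 18 to 11. Members lower in ECs than in MNCs ranged from 1 to 2 on leaving out a library, with *Bglap* called without *Flt3ITD/ITD* EC replicate 5 (adjusted p = 0.0212). The single exact test with p below 0.05, *Alpl* in MSCs, became 3 tests with limma on log2(RPKM + 1) and on log2(RPKM + 0.1) after a filter at a mean of 1 RPKM, which added *Ibsp* in MSCs and *Runx2* in MNCs, and 2 without the filter at a pseudocount of 0.1. All had adjusted p-values of 0.33 or more over all genes. The number ranged from 0 to 2 on leaving out a library, being 0 without *Flt3+/+* MSC replicate 2, 3 or 5 or *Flt3ITD/ITD* MSC replicate 2 or 3. The log2 fold change of *Sparc* between genotypes in MSCs, -0.08, ranged from -0.374 to 0.0187 on leaving out a library. The cause of these changes was not tested.

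Libraries with the same replicate number did not deviate together (correlations from -0.0716 to 0.0661 over 40 pairs), so the numbers were not taken as pairs. With the replicate block, 0 members were called between genotypes in MSCs, and *Alpl* there had a log2 fold change of -2.02 (adjusted p = 1, edgeR). *Sp7* and *Tnfsf11* were at 3 counts or less in most libraries, so genotype differences in these genes could not be judged. The part of depth and cell number was not tested.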
